A study of Mus musculus with 17 samples.

Results

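The hair shaft keratins are the keratins that fill the cells of the growing hair. The set was chosen by gene name and comprised 10 genes, of which 9 were measured here among 34140 genes of the deposited table: the type I (acidic) genes Krt31, Krt32, Krt33a, Krt33b, Krt34 and Krt35, and the type II (basic) genes Krt81, Krt83 and Krt86. Krt85 was not analysed here. Skin of C57/BL6j mice was sequenced in 17 libraries. Irradiated skin (ionizing radiation) was taken at day 3 (3 libraries), day 6 (2) and day 9 (3), and control skin at day 0 (2), day 3 (2), day 6 (2) and day 9 (3). The series' design text counts days from an injury and asks which molecules act in wound healing after irradiation. The labels used here give no radiation dose and no description of the wound, nor the sex or age of the mice. Nor do they say whether replicate libraries are different animals, so a p-value here measures spread between libraries, which may be technical. No irradiated library was labelled day 0.

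A keratin filament is built from pairs of 1 type I and 1 type II keratin. In the growing follicle, cells of the matrix at the base move upward, switch on shaft keratin genes in a fixed order and finally harden as the keratins are cross-linked to keratin-associated proteins. In human follicles KRT35 appears early, in the matrix and the precortex just above it, KRT31, KRT33A, KRT33B, KRT34, KRT81, KRT83 and KRT86 follow in the cortex that forms the bulk of the shaft, and KRT32 belongs to the cuticle that covers it. A resting follicle does not make these RNAs.

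The members lie in 2 clusters of the GRCm38 (mm10) genome. On chromosome 11, all on the minus strand, are Krt33a (ENSMUSG00000035592, 100011195 to 100016212), Krt33b (ENSMUSG00000057723, 100023634 to 100029868), Krt34 (ENSMUSG00000043485, 100037347 to 100041554), Krt31 (ENSMUSG00000048981, 100046646 to 100050551), Krt32 (ENSMUSG00000046095, 100080848 to 100088226) and Krt35 (ENSMUSG00000048013, 100092193 to 100096241). On chromosome 15 are Krt81 (ENSMUSG00000067615, 101459061 to 101463765, minus strand), Krt86 (ENSMUSG00000067614, 101473478 to 101479983, plus strand) and Krt83 (ENSMUSG00000067613, 101485131 to 101491512, minus strand). Some members are close copies. Of 36 pairs of their longest GENCODE transcripts, 10 shared at least 1 identical stretch of 100 bases, most of all Krt81 with Krt86, where 24.4% of the 100-base windows of Krt81 occurred in Krt86 and the longest shared stretch was 374 bases. Krt33a and Krt34 shared a stretch of 295 bases, and Krt31 a stretch of 240 bases with each of them. No label says how such fragments were divided between genes in the authors' counting, so levels of these members are uncertain relative to each other. Krt35 shared 0.131% of its windows with Krt34 and none with the other members.

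RefSeq (GRCm38.p6) promoter windows of 300 bases around the gene start were at hand for only 4 members, and all 4 are shown. Their places are chr11:100050502-100050801 (Krt31), chr11:100088220-100088519 (Krt32), chr11:100029819-100030118 (Krt33b) and chr11:100041505-100041804 (Krt34), written 5′ to 3′ on the minus strand. Capitals mark TATAAA, the letters of a TATA box, and CTTTGAA, letters that LEF1 and TCF proteins are known to bind.
Krt31: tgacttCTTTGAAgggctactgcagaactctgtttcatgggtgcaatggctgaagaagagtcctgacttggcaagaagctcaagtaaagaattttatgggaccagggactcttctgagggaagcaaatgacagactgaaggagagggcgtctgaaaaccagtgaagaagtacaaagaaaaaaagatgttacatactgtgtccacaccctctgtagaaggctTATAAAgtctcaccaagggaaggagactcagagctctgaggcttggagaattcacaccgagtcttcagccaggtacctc
Krt32: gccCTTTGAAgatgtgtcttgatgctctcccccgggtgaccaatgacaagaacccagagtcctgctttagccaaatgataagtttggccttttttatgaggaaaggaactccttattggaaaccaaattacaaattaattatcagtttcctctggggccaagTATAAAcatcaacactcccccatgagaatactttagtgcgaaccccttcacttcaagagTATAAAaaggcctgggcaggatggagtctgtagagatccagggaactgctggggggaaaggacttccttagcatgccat
Krt33b: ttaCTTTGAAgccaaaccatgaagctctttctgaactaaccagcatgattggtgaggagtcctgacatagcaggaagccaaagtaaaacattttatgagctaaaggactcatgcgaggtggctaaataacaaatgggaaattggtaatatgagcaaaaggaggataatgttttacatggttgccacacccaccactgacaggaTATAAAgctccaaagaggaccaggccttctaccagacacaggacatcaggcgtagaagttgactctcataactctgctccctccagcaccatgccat
Krt34: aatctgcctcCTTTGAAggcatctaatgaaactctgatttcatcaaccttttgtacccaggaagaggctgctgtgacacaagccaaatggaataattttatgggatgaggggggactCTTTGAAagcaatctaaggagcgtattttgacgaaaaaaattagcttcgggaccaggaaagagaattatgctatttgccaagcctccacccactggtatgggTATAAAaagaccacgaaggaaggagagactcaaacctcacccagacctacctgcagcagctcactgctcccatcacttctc
With the start base as position 0, TATAAA began at -29 in Krt31, at -88 and -29 in Krt32, at -47 in Krt33b and at -31 in Krt34. On the gene's own strand it occurred in 4 of 4 windows, against 8.32% of the 32851 promoter windows of the same length in the table (13.6% on either strand). CTTTGAA began at -244 in Krt31, -247 in Krt32, -247 in Krt33b and at -240 and -133 in Krt34, also on the gene's own strand in 4 of 4 windows, against 2.7% of all windows (5.14% on either strand). Another form, CTTTGTT, was in none of the 4 on either strand and in 5.85% of all windows. The motifs do not overlap each other. The genes are neighbours and related copies, so these are not 4 independent matches.

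The deposited values are FPKM, that is, fragments scaled to gene length and to the assigned fragments of the library. The library totals behind them were 25440773 to 30797409 assigned fragments. The replicates of control day 9 were less alike than most: across 15271 genes, Pearson's r of log2(FPKM + 1) was 0.987 between replicates 1 and 2, but 0.963 and 0.949 between either and replicate 3. The lowest r within any group was 0.945, between the irradiated day 6 libraries. The skin label fitted the day 9 libraries. The summed FPKM of 8 epidermal markers ranged from 12485.5 to 14167.6 in irradiated and from 6373.27 to 11901.9 in control day 9 libraries. In control day 0 libraries they summed to 2647.0 to 5186.4 FPKM, below the 17241.8 to 19639.6 FPKM of 8 skeletal muscle markers.

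Hair shaft keratin RNA was low in control skin at days 0, 3 and 6 and in irradiated skin at days 3 and 6, with no member at 1 FPKM, and was higher at day 9. In 2 of the 3 control day 9 libraries all 9 members were above 1 FPKM, whereas in the 3 irradiated day 9 libraries only Krt35 was above 1 FPKM. Summed over the 9 members, irradiated skin had 3.96, 9.17 and 6.06 FPKM at day 9, and control skin had 43.4, 96.5 and 2.99 FPKM. Before day 9 the sums were 0.274 to 1.10 FPKM in the 5 irradiated libraries, and 0.374 to 1.67 FPKM in the 6 control libraries of days 0 to 6. In fragments, the day-9 sums were 252, 579 and 418 in irradiated libraries and 2825, 5771 and 162 in control libraries.

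**Figure D1:**
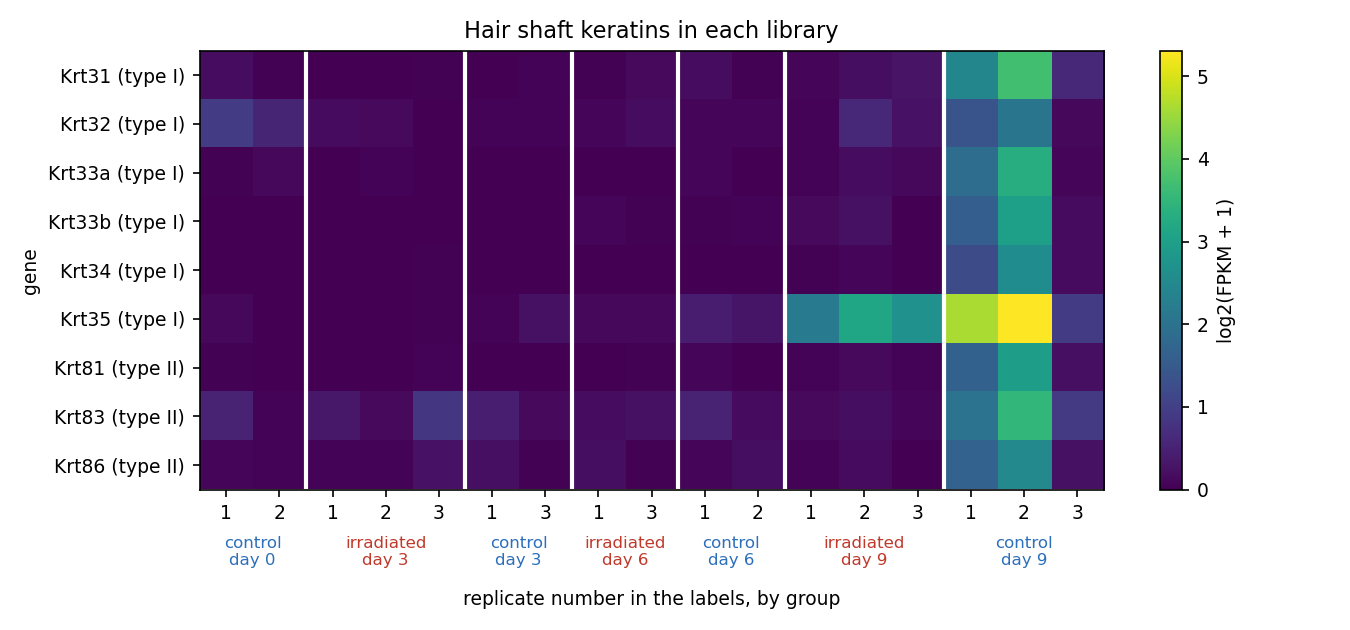
Level of each of the 9 hair shaft keratins (rows) in each of the 17 libraries (columns, grouped by arm and day, with replicate numbers below), as log2(FPKM + 1). Only control day 9 replicates 1 and 2 show all rows, and the irradiated day 9 libraries show the Krt35 row.

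Krt35, the early type I keratin, had 3.52, 7.80 and 5.46 FPKM in irradiated day 9 libraries (231, 513 and 387 fragments), against 24.0, 38.6 and 0.904 FPKM in control day 9 libraries (1766, 2733 and 60 fragments). Every irradiated library thus lay between control replicate 3 and the other two control libraries, and the groups overlapped. The means were 5.59 ± 2.15 FPKM in irradiated and 21.2 ± 19.0 FPKM in control skin (SD, n = 3 each). On the log2(FPKM + 1) scale, on which all fold changes here are given (adjusted p-values are from limma over all 15271 genes tested, and a gene passed at an adjusted p under 0.05), the difference was -0.96 (95% interval -2.69 to 0.77, adjusted p 0.507), so no difference in Krt35 between the arms was shown in either direction. In the 11 libraries of days 0, 3 and 6, Krt35 ranged from 0 to 0.328 FPKM (0 to 22 fragments).

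Within the irradiated arm, the mean level of Krt35 was higher at day 9 than at day 3, although this change did not pass. Between these days the other 8 members changed by -0.30 (Krt83) to 0.21 (Krt32). At their levels below 1 FPKM this scale is compressed, so small changes there do not show that these members were flat. In fragments summed over the 3 libraries of each day, Krt31 went from 1 to 19 and Krt32 from 11 to 36. Krt33a went from 2 to 14, Krt33b from 0 to 12, Krt34 from 1 to 4 and Krt81 from 2 to 9. Krt83 fell from 63 to 16 and Krt86 from 15 to 8. Krt35 had 3.52 to 7.80 FPKM at day 9 against 0, 0.0143 and 0.0285 FPKM at day 3. At day 6 it still had only 0.0883 and 0.0753 FPKM (6 and 5 fragments). Its change of 2.65 from day 3 to day 9 (limma, SE 0.797, unadjusted p 0.00591) missed the threshold after adjustment over all genes (adjusted p 0.126). No member passed in this comparison (limma, 1 with an unadjusted p under 0.05, and none with limma-voom), and 0.38% of all genes passed as higher. For 3 of 9 members (Krt31, Krt33a and Krt35) every day 9 library was above every day 3 library, as for 13.9% of all genes tested. Krt35 did pass when only these 6 libraries were fitted (adjusted p 0.014), with a pseudocount of 0.1 (0.0324), and without control day 9 replicate 3 (0.000234), whose distance from its group widens the shared estimate of the spread. Against control day 0, irradiated day 9 skin was higher in Krt35 by 2.61 (SE 0.891, adjusted p 0.0302; 29.6% of all genes passed as higher), the 1 of 9 members that passed. That call ended without either day 0 library (0.107 and 0.101), without irradiated day 9 replicate 2 (0.08) or 3 (0.0618), with a pseudocount of 5 (0.156), with no filter (0.066) and with limma-voom (0.195). These groups differ both in irradiation and in days after injury. With no irradiated library at day 0, these cannot be told apart here.

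The cortical type I keratins stayed low in irradiated skin. Krt31, the highest of them in all 3 control day 9 libraries, had 0.0692, 0.138 and 0.214 FPKM in irradiated day 9 libraries (3, 6 and 10 fragments), against 4.401, 12.03 and 0.502 FPKM in control day 9 libraries (214, 562 and 22 fragments). The groups did not overlap, although control replicate 3 was nearer to the irradiated libraries than to the other control libraries. Krt31 passed as lower in irradiated skin, at -2.05 on the log2 scale (SE 0.525, adjusted p 0.0443). Krt33a had 0.0354, 0.124 and 0.0819 FPKM in irradiated libraries and 2.71, 8.94 and 0.070 FPKM in control libraries, a difference of -1.66 (adjusted p 0.0908), with control replicate 3 inside the irradiated range. Krt33b and Krt34, also of the cortex, were at 0 fragments in irradiated day 9 replicate 3. Their differences were -1.46 (adjusted p 0.0924) and -1.27 (adjusted p 0.0892). A count of 0 allows up to 3 fragments, which at the mean library size is 0.0659 FPKM for Krt33b and 0.0648 FPKM for Krt34, for counting error only.

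Krt32, the cuticle keratin, was the highest member in both control day 0 libraries, at 0.936 and 0.467 FPKM (41 and 24 fragments). Krt83 came next in the first of these, at 0.427 FPKM (20 fragments), and had 2 fragments in the other. At day 9 Krt32 had 0.0424, 0.508 and 0.196 FPKM in irradiated skin and 1.59, 3.17 and 0.0839 FPKM in control skin. The groups overlapped, with a difference of -0.88 (SE 0.354, adjusted p 0.162). In control skin the comparison of day 9 with day 0 gave 0.43 for Krt32 (adjusted p 0.392), the only member that did not pass there.

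Among the type II partners the low irradiated values recurred. Krt83 had 0.0991, 0.139 and 0.0734 FPKM in irradiated day 9 libraries (5, 7 and 4 fragments), against 3.06, 10.4 and 0.863 FPKM in control day 9 libraries (173, 563 and 44 fragments). Here too every irradiated library was below every control library, and the log2 fold change of -1.999 passed (SE 0.468, adjusted p 0.0329). Krt81 had 0.0393, 0.0981 and 0.0364 FPKM in irradiated skin and 2.12, 6.87 and 0.156 FPKM in control skin (-1.53, adjusted p 0.0754). Krt86 had 0.0372, 0.112 and 0 FPKM in irradiated skin and 2.19, 4.68 and 0.184 FPKM in control skin (-1.41, adjusted p 0.0571). Krt81 and Krt86 share the longest sequence, so the split between them is uncertain. Krt83 was the only member with fragments in all 17 libraries, with up to 43 fragments (irradiated day 3 replicate 3) outside control day 9.

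**Figure D2:**
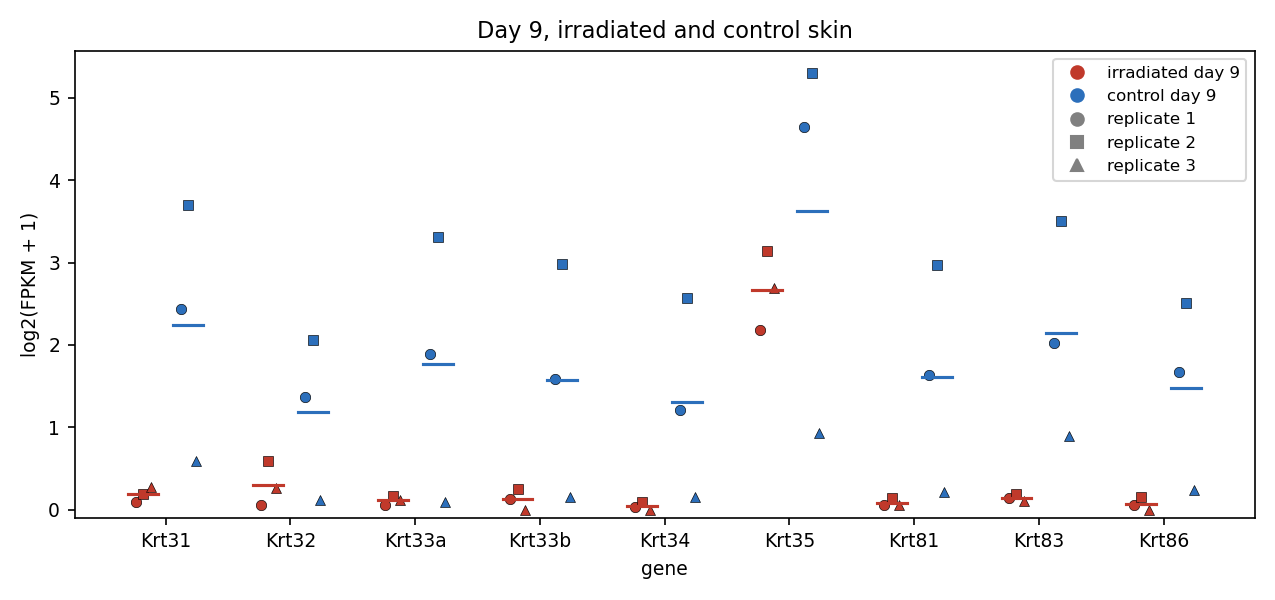
Level of each member at day 9 as log2(FPKM + 1), irradiated libraries left (red) and control libraries right (blue) for each gene, with marker shapes for replicate numbers and a bar at the mean. All members but Krt35 lie below 1 FPKM in irradiated skin, with Krt32 in replicate 2 the highest of them at 0.508 FPKM. Control replicate 3 lies far below control replicates 1 and 2 for every member.

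Across the members, irradiated against control skin at day 9 gave 2 of 9 lower (Krt31 and Krt83) and none higher, where 3.05% of all 15271 genes tested passed as lower and 2.33% as higher. The median over the members was -1.46, and 0.02 over all genes tested. For 5 of 9 members (Krt31, Krt34, Krt81, Krt83 and Krt86) every irradiated library was below every control library, which held for 17.2% of all genes tested. All 9 members passed the filter on low values through control day 9 replicates 1 and 2, and Krt35 also through the irradiated day 9 libraries, so these counts describe the members and do not stand as independent support. The calls depended on single libraries. Without control day 9 replicate 3 all 9 members passed (Krt31 at -2.88, adjusted p 0.000139, and Krt35 at -2.31, adjusted p 0.000316). Without control day 9 replicate 1 or 2, or without any single irradiated day 9 library, none passed, nor did any in a fit of only these 6 libraries. Leaving out either control day 3 library or any single irradiated day 3 library left 1.

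**Figure D3:**
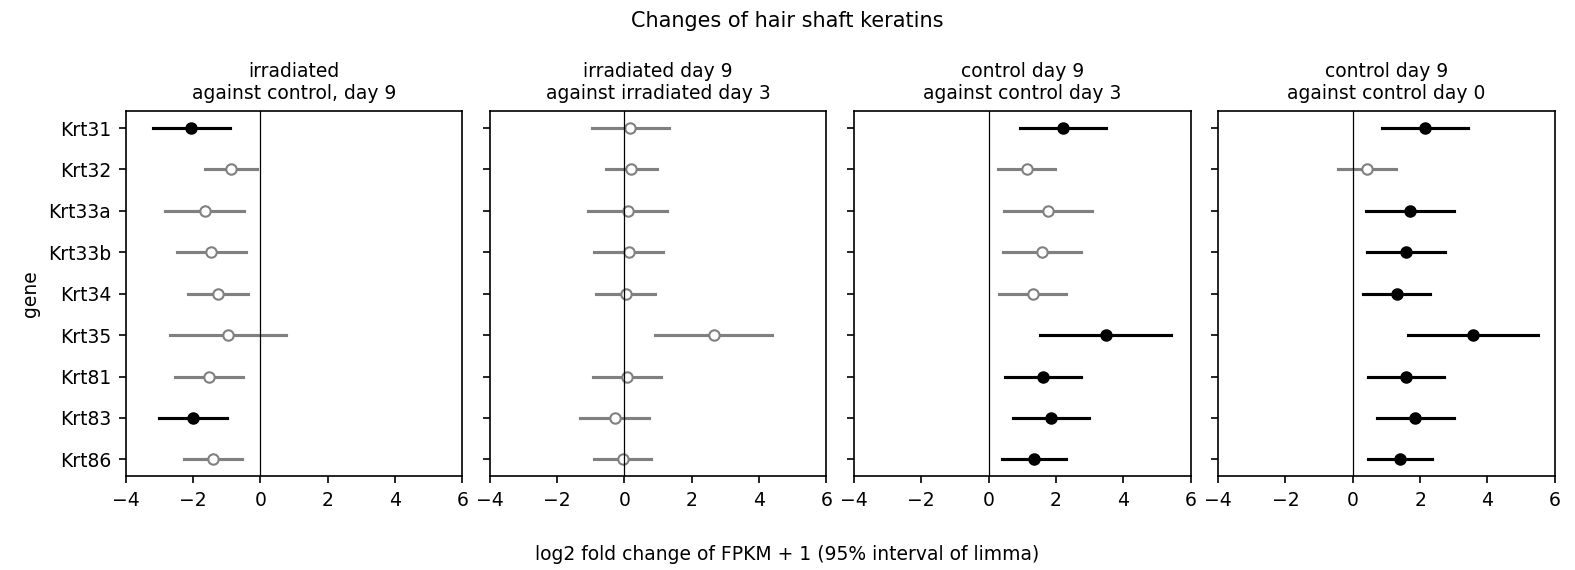
Log2 fold changes of FPKM + 1 for each member with the 95% interval of the limma fit, in 4 comparisons, with filled black points for an adjusted p under 0.05 and open grey points otherwise. At day 9 Krt31 and Krt83 passed as lower in irradiated skin, and 8 of 9 members passed as higher in control day 9 against control day 0.

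At days 3 and 6 no difference between the arms was detectable at this depth, and the intervals are wide. The irradiated day 6 libraries also differed from each other in make-up. In replicates 1 and 3, epidermal markers summed to 4836.3 and 16048.6 FPKM, and leukocyte markers to 10747.2 and 5448.45 FPKM. The part of this in the day 6 comparison was not tested. No member passed at day 3 (limma; none with an unadjusted p under 0.05, and none with limma-voom; 1.85% of all genes passed), with fold changes from -0.13 to 0.15 and intervals reaching from -2.07 to 1.81. No member passed at day 6 either (limma; none with an unadjusted p under 0.05, and none with limma-voom; 0.275% of all genes passed), with fold changes from -0.24 to 0.04 and intervals from -2.36 to 1.88. Krt35, the 1 of 9 members whose groups did not overlap in this direction on either day (25.1% of all genes at day 3 and 16% at day 6), was at 0 to 0.0285 FPKM in irradiated and 0.0426 and 0.183 FPKM in control skin at day 3, and at 0.0883 and 0.0753 FPKM in irradiated and 0.328 and 0.229 FPKM in control skin at day 6. These are 0 to 6 fragments in irradiated and 3 to 22 fragments in control libraries. The difference between the irradiation effects at day 9 and day 3 passed for no member (limma, 4 with an unadjusted p under 0.05, none with limma-voom; 0% of all genes passed). That between day 9 and day 6 passed for none either (limma, 3 with an unadjusted p under 0.05, none with limma-voom; 0.0131% of all genes passed). Without control day 9 replicate 3, 7 and 5 members passed in these tests. A change of the irradiation effect between days was thus not shown with all libraries.

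In control skin, day 9 was higher than day 0 in 8 of 9 members, where 30.4% of all genes tested passed as higher. The median over the members was 1.59, and 0.15 over all genes. Krt35 rose by 3.57 (SE 0.891, adjusted p 0.00576), Krt31 by 2.14 (SE 0.587, adjusted p 0.00974) and Krt83 by 1.86 (SE 0.523, adjusted p 0.0113). For 7 of 9 members every day 9 library was above every day 0 library, as for 40.2% of all genes. None of the 9 passed in a fit of only these 5 libraries. The count was 3 without control day 0 replicate 1, 2 without control day 0 replicate 2 and 3 without control day 9 replicate 1. Markers of other tissue also differed between these days. Skeletal muscle markers summed to 17241.8 to 19639.6 FPKM at day 0 and 1188.8 to 2219.3 FPKM in control day 9 libraries. Epidermal markers summed to 2647.0 to 5186.4 and 6373.3 to 11901.9 FPKM. Their part in any comparison with day 0, also that of irradiated day 9 skin, was not tested. Against control day 3, 5 of 9 members rose in control day 9 skin (Krt31, Krt35, Krt81, Krt83 and Krt86; 8.02% of all genes passed as higher), and for all 9 every day 9 library was above every day 3 library (22.9% of all genes). That count was 9 without control day 9 replicate 3, 2 without control day 9 replicate 2 and 0 without control day 9 replicate 1 or either control day 3 library, and 3 without any single other library. Between control day 3 or day 6 and control day 0 no member passed (limma, none with an unadjusted p under 0.05, and none with limma-voom; 38.1% and 35.3% of all genes passed).

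The make-up of shaft keratin RNA at day 9 was read as the share of each member. Krt35 made up 88.9%, 85.1% and 90.1% of the summed FPKM of the 9 members in irradiated libraries, against 55.3%, 40.0% and 30.2% in control libraries, so the groups did not overlap. The means were 88.0% ± 2.63 in irradiated and 41.8% ± 12.6 in control skin (SD, n = 3 each; exact two-sided permutation test, p = 0.1, the smallest that 3 against 3 libraries allow; this measure was chosen after the values were seen). Control replicate 3, with the lowest sum of all day 9 libraries, had the lowest Krt35 share. Krt83 made up 28.9% of the sum there, against 7.05% and 10.7% in control replicates 1 and 2. On earlier days, with 15 to 65 fragments in all members together, the share ran the other way, at 2.60% ± 2.60 in irradiated (SD, n = 3) and 28.0% ± 29.7 in control skin (n = 2) at day 3 (exact two-sided permutation test, p = 0.2), and at 16.0% ± 2.57 in irradiated and 32.9% ± 7.003 in control skin (n = 2 each) at day 6 (exact two-sided permutation test, p = 0.333, the smallest possible). The sum of all 9 members averaged 6.40 ± 2.63 FPKM in irradiated and 47.6 ± 46.9 FPKM in control skin at day 9, with overlapping groups (exact two-sided permutation test, p = 0.4, n = 3 each). Without Krt35, the other 8 members summed to 0.438, 1.37 and 0.602 FPKM in irradiated libraries (21, 66 and 31 fragments) and to 19.4, 57.9 and 2.09 FPKM in control libraries (1059, 3038 and 102 fragments), again with no overlap (exact two-sided permutation test, p = 0.1, n = 3 each). The smallest of the control values was 2.09 FPKM and the largest of the irradiated ones 1.37 FPKM. Leaving out Krt35 was not planned beforehand. The other 8 members passed the filter on low values only through control day 9 replicates 1 and 2. This separation thus describes them and is no independent support. The Krt35 share is taken over a sum that includes these 8 members. Its separation and p-value are therefore a description too, not a second independent result.

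**Figure D4:**
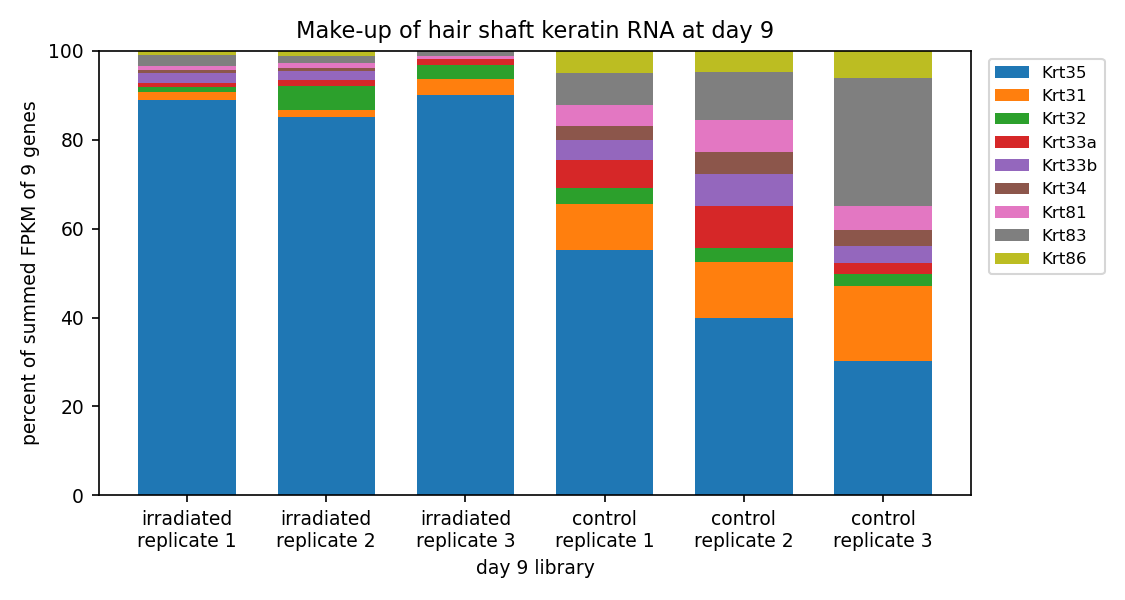
Share of each member in the summed FPKM of the 9 members, in percent, in the 3 irradiated (left) and 3 control (right) day 9 libraries. Krt35 (blue, at the bottom) takes 85.1% to 90.1% in irradiated and 30.2% to 55.3% in control libraries.

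Among control day 9 libraries the members did not scale by 1 common factor. Replicate 2 exceeded replicate 1 by 1.61-fold for Krt35, 1.996-fold for Krt32 and 2.14-fold for Krt86, and by 2.73-fold (Krt31) to 3.76-fold (Krt34) for the others. The order of levels began with Krt35, Krt31, Krt83 and Krt33a in both, so the early keratin led in each. Krt81 and Krt33b stood at 2.12 and 2.02 FPKM in replicate 1 and at 6.87 and 6.94 FPKM in replicate 2, and their order changed between the libraries. In irradiated day 9 libraries the order below Krt35 changed from library to library, at 0 to 24 fragments per member.

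Other genes of the shaft and of the follicle were read beside the members. Of 56 keratin-associated protein genes, which code for the proteins that cross-link shaft keratins, 28 were tested and 14 of these passed as lower and none as higher in irradiated skin at day 9 (3.05% and 2.33% of all genes tested). Of the 28, 0 were at 1 FPKM or more in any irradiated day 9 library, against 26, 28 and 5 in the control day 9 libraries, so they too passed the filter on low values through control day 9, and their counts are a description. The summed FPKM of all 56 was 1.85, 3.12 and 1.62 in irradiated libraries, with 38, 32 and 50 of the 56 genes at 0, against 89.5, 330.6 and 19.7 in control libraries, with 6, 1 and 6 at 0. The largest change was that of Krtap7-1 (-3.66, SE 0.671, adjusted p 0.0122), with 0.235, 0.176 and 0 FPKM in irradiated and 15.9, 51.5 and 2.27 FPKM in control libraries. Krtap8-1 (-3.46, adjusted p 0.0257) and Krtap11-1 (-2.69, adjusted p 0.0252) came next, and for all 3 genes control replicate 3 stood above the irradiated libraries. In control day 9 against day 0, 24 of the 28 rose (30.4% of all genes tested), led by Krtap7-1 (3.71) and Krtap8-1 (3.35), and Krtap3-2 fell (-1.71, adjusted p 0.0129). The remaining hair keratins on the list were 6 genes, of which 3 were tested. None passed at day 9 between the arms, and Krt87 (1.89, SE 0.60, adjusted p 0.0206) and Krt36 (1.05, SE 0.361, adjusted p 0.0301) rose in control day 9 against day 0. Krt87 had 0.220, 0.379 and 0.0555 FPKM in irradiated and 4.18, 9.71 and 0.217 FPKM in control day 9 libraries.

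The inner root sheath, the layer that encloses and moulds the shaft, was measurable in every day 9 library. Its 9 genes summed to 68.0, 156.7 and 74.0 FPKM in irradiated day 9 libraries, against 737.3, 1000.2 and 62.4 FPKM in control day 9 libraries, and none of the 9 was at 0 in any of these. Of 8 tested, 2 passed as lower in irradiated skin, where 3.05% of all genes tested did. They were the sheath keratins Krt72 (-2.39, SE 0.54, adjusted p 0.0283) and Krt26 (-1.45, SE 0.364, adjusted p 0.0415). In irradiated day 9 against irradiated day 3 skin 1 of the 8 passed as higher, where 0.38% of all genes did. It was Krt25, which rose by 4.06 (SE 0.839, adjusted p 0.0442). In control day 9 against day 0, all 8 tested rose, where 30.4% of all genes passed as higher. Among them were Krt71 (6.42), Krt25 (5.94) and Krt27 (5.58).

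Among 5 shaft genes that are not keratins, 4 were tested and 1 passed as lower at day 9 (3.05% of all genes tested). It was Gprc5d, a receptor gene known in mouse from the hair-forming cells, at -1.35 (SE 0.349, adjusted p 0.0457). Its levels were 0, 0.105 and 0.0732 FPKM in irradiated and 2.04, 4.13 and 0.261 FPKM in control libraries. Of 13 regulators linked to shaft formation, none passed between the arms at day 9. Hoxc13, a homeobox factor that mouse hair needs for its keratins, had 2.06, 4.89 and 4.36 FPKM in irradiated and 10.2, 13.1 and 1.31 FPKM in control libraries. Dlx3, another homeobox factor of the follicle, had 7.91, 14.4 and 13.3 FPKM in irradiated and 27.5, 34.8 and 4.75 FPKM in control libraries. For both, control replicate 3 was below every irradiated library. In control day 9 against day 0, 6 of the 13 rose, where 30.4% of all genes passed as higher, and 2 fell. Among these were Dlx3 (2.16), the homeobox gene Msx2 (1.58) and the signalling ligand Bmp2 (-1.25).

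**Figure D5:**
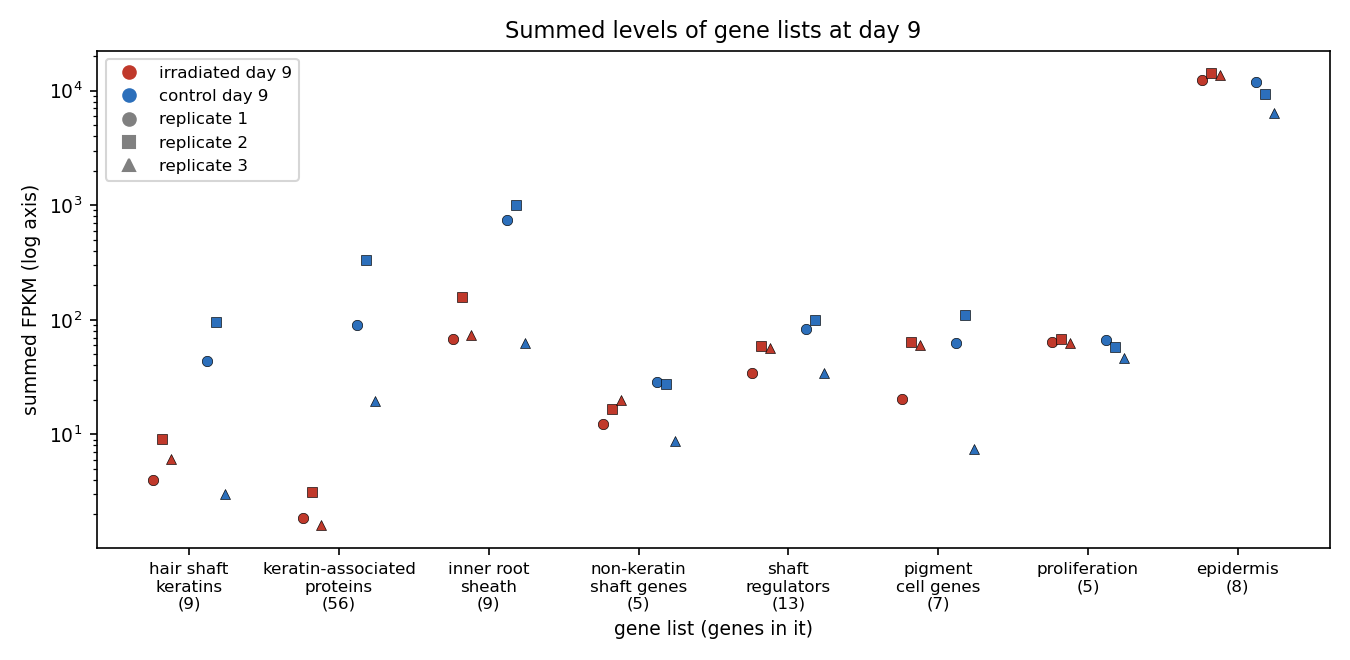
Summed FPKM (log axis) of the members and of 7 other gene lists in the day 9 libraries, irradiated left (red) and control right (blue) for each list, with marker shapes for replicate numbers. Irradiated and control libraries are separate for keratin-associated proteins (1.62 to 3.12 against 19.7 to 330.6), whereas control replicate 3 falls among or below the irradiated libraries for most other follicle lists.

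Markers of other cells differed between the day 9 libraries as well. Pigment cell markers (7 genes) summed to 20.5, 63.6 and 60.3 FPKM in irradiated and 63.0, 110.9 and 7.39 FPKM in control libraries, so control replicate 3 was again lowest. Leukocyte markers (6 genes) summed to 6963.6, 5597.2 and 5584.2 FPKM in irradiated and 2323.1, 1587.0 and 10652.3 FPKM in control libraries, with control replicate 3 highest. Adipocyte markers (6 genes) summed to 390.3 to 1098.9 FPKM in irradiated and 156.0 to 231.1 FPKM in control libraries. Of these, Adipoq (2.53), Cfd (2.31) and Cidec (1.73) passed as higher, where 2.33% of all genes tested did. Proliferation genes (5) summed to 62.4 to 67.5 FPKM in irradiated and 46.7 to 66.9 FPKM in control libraries, and none passed. Sebocyte markers (5 genes) summed to 277.2 to 651.3 FPKM in irradiated and 112.7 to 264.0 FPKM in control libraries, and none passed. Fibroblast markers (5 genes) summed to 5944.7, 4150.9 and 3193.7 FPKM in irradiated and 7830.8, 8228.8 and 6694.1 FPKM in control libraries, so that the sums did not overlap, and none passed. Outer root sheath and bulge markers (6), skeletal muscle markers (7 tested of 8) and endothelial markers (3) had no gene that passed between the arms at day 9. In whole skin, fewer follicle cells and less RNA per follicle cell cannot be told apart, and the part of these other cells in the keratin values was not tested.

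Over the 17 libraries, the 8 other protein-coding genes whose log2(FPKM + 1) most resembled the members' mean, out of 9447 with a maximum of at least 5 FPKM, were Krtap3-3 (Pearson's r 0.996, Spearman's rho 0.77), Krt87, Krtap28-10, Krtap11-1, Gm10229, Ly6g6d, Krtap8-1 and Krtap9-3 (r 0.981, rho 0.723). The list thus held 5 keratin-associated protein genes and 1 hair keratin. The points share their libraries, and for 8 of the 9 members control day 9 replicates 1 and 2 hold the only values of at least 1 FPKM. Among the members themselves r was lowest between Krt35 and Krt83 (0.729) and highest between Krt33a and Krt81 (0.998).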

How the data were processed

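Libraries of mouse skin RNA were made with Smart-Seq2, per the labels' protocols. Reads were aligned to mm10 with HISAT2 2.2.1, per the submitters' processing notes; the counting tool and annotation are not given there. The authors deposited FPKM per gene and library, with no counts. Dividing each value by the step that gene length and library allow gave whole fragments (within 0.01) for all values of 31476 genes with GENCODE M21 lengths, and for 1872 more with a fitted length (3 members among them), 97.561% of nonzero values in all. Library totals were 25440773 to 30797409.

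Genes with at least 1 FPKM in at least 2 libraries (15271) were fitted as log2(FPKM + 1) with limma 3.58.1 (limma-trend, R 4.3.3), 1 mean for each of 7 groups over all 17 libraries, with Benjamini-Hochberg adjustment over all genes and a threshold of 0.05. How often the fit passes genes wrongly when their spread differs between groups, as for the members, was not tested. The main fit pools the spread of all groups, of which most are near 0 for the members. For them its standard errors, intervals and p-values therefore understate the spread within control day 9. Fold changes are compressed near and below 1 FPKM. Intervals and the limit for a count of 0 (3 fragments) cover the fit and counting error only. Figures used matplotlib 3.10.9. Named were all members, up to 3 passing genes with the largest change per list and comparison, and the 8 most similar genes; Krt87, Hoxc13 and Dlx3 levels at day 9 were chosen after their values were seen. The members and lists were chosen with earlier results of these data known. Alternatives were pseudocounts of 0.1 and 5, no filter, a minimum of 5 FPKM, median-of-ratios scaling, quantile normalization, only the groups compared, a replicate block, each library left out, and limma-voom on recovered fragments, which was chosen after seeing the data.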

Additional observations from a re-analysis of the deposited data

How the results depend on the processing

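The number of members that passed in irradiated against control skin at day 9 was 2, and it was 3 after quantile normalization and 2 after median-of-ratios scaling. It fell to 0 with a pseudocount of 5, with no filter on low values, with only the groups compared, and with limma-voom. It was also 0 with a minimum of 5 FPKM, but that filter leaves 1 member (Krt35) in every comparison and removes both passing members, so it tests nothing here. The number ranged from 0 to 9 when single libraries were left out. For control day 9 against day 0 the number was 8, and 5 with a pseudocount of 5, 5 with no filter, 1 (of 1 tested) with a minimum of 5 FPKM, 0 with only the groups compared, 3 with limma-voom and 2 to 9 with single libraries left out. For control day 9 against day 3 it was 5, and 8 with a pseudocount of 0.1, 1 with a pseudocount of 5, 2 with no filter, 1 (of 1 tested) with a minimum of 5 FPKM, 3 after quantile normalization, 0 with only the groups compared, 0 with limma-voom and 0 to 9 with single libraries left out. For irradiated day 9 against irradiated day 3 it was 0, and 1 with a pseudocount of 0.1, 1 with only the groups compared and 0 to 1 with single libraries left out. For irradiated day 9 against control day 0 it was 1, and 0 with a pseudocount of 5, no filter or limma-voom, and 0 to 1 with single libraries left out. The remaining comparisons stayed at 0 under these settings, except without control day 9 replicate 3, when 7 and 5 members passed in the tests of day 9 against day 3 and day 6 effects (range 0 to 7 and 0 to 5) and 1 in control days 3 and 6 against day 0 (range 0 to 1). The causes were not tested beyond what the settings themselves remove.

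Fold changes were recomputed for all 9 members in irradiated against control skin at day 9, control day 9 against day 0 and irradiated day 9 against day 3, and for Krt35 alone in the other comparisons. Those that changed sign had not passed. They were Krt35 in the test of day 9 against day 6 effects (0.19 with a pseudocount of 0.1, 0.12 without control day 9 replicate 2, 0.79 with limma-voom), in that of day 9 against day 3 effects (0.014 without control day 9 replicate 2, 1.63 with limma-voom) and at day 6 (0.34 with the replicate block), Krt34 (-0.0042 after quantile normalization) and Krt86 (0.020 without irradiated day 3 replicate 3) in irradiated day 9 against day 3, and Krt32 (-0.0096 without control day 9 replicate 2) in control day 9 against day 0. With single libraries left out these ranged from -2.07 to 0.12, from -2.18 to 0.014, for Krt86 from -0.090 to 0.020 and for Krt32 from -0.0096 to 0.96. With the replicate number as a block, control day 9 against day 3 had 2 passing members instead of 5, and day 9 between the arms had 3. Across genes, residuals of libraries with the same number and day had r from -0.122 to 0.298, so the libraries share a number and are not shown to be paired. Depth limits the members at days 0 to 6, where most had fewer than 10 fragments per library.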

Other observations

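Among the same 9447 protein-coding genes, the 8 with the highest Pearson's r to Krt35 over the 17 libraries were Krt73 (0.99), Krt28 (0.99), Msx2, Krt25, Krt27, Padi3, Krt71 and Hoxc13 (0.956). The sheath genes below these ranged from 0.854 (Krt74) to 0.94 (Tchh), with Krt26 at 0.856 and Krt72 at 0.869. With the other shaft keratins, r of Krt35 ranged from 0.729 (Krt83) to 0.838 (Krt31). This ranking was made after the values of Krt35 were seen, and the points share their libraries. Krt73, a keratin of the sheath, had 8.85, 19.3 and 11.6 FPKM in irradiated day 9 libraries and 54.3, 64.3 and 2.62 FPKM in control day 9 libraries. Krt28, another sheath keratin, had 7.64, 17.9 and 14.04 FPKM in irradiated and 44.9, 61.1 and 3.16 FPKM in control day 9 libraries. For both, as for Krt35, the irradiated libraries lay between control replicate 3 and the other control libraries.

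Krt82, a hair keratin of the cuticle outside the set, had 0.0874, 0.192 and 0.162 FPKM in irradiated day 9 libraries and 0.872, 3.67 and 0.0173 FPKM in control day 9 libraries. Krt82 was lowest in control replicate 3 and Krt32 lay inside the irradiated range there, as did the cortical Krt33a and Krt33b, whereas Krt31, Krt34, Krt81, Krt83 and Krt86 were higher there than in every irradiated library. These values were compared after they were seen and were not tested against each other.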
